A study of Mus musculus with 9 samples.

Results

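The mitochondrial ribosomal protein genes are the genes named Mrpl (large subunit) and Mrps (small subunit) followed by a digit. By that rule 65 of the 6213 genes in the table of fatty acid treated against control cells were members, 42 of the large and 23 of the small subunit, with counts summed per gene symbol. The same 65 genes were followed in the other 2 tables, where all of them were listed, and all 65 were tested in each comparison, so none was lost to a filter on low counts in the fits. Listed mean counts went down to 56.8 for fatty acid treated against control cells and to 5.17 between the 2 fatty acid groups. Family genes with low counts could thus be absent before any fit. RefSeq (GRCm38.p6) holds 78 protein-coding mouse genes whose names fit the rule. The table of the 2 fatty acid groups, which reached lower counts, listed 73 of them, and Mrpl2, Mrpl4, Mrpl55, Mrpl58 and Mrps27 were in no table used here.

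RNA was sequenced from 9 samples of AML12, a line of mouse hepatocytes, in 3 groups of 3. Control cells were untreated. The PA/OA group was kept for 24 h in 0.2 mM PA with 0.4 mM OA, taken here to be palmitic and oleic acid. The Ang(1-7) group was given 100 nM Ang(1-7), a peptide hormone of the renin-angiotensin system, 30 min ahead of the same fatty acids. No group received a carrier alone or Ang(1-7) alone, so a carrier and the fatty acids themselves cannot be told apart, and the effect of the peptide on lean cells was not measured. The labels name 1 cell line and do not say whether samples of a group were grown apart. The p-values therefore measure the spread among these samples alone, and that spread may be technical.

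Mitochondrial ribosomes make the few proteins encoded by mitochondrial DNA, which are core subunits of the respiratory chain and of ATP synthase. Their ribosomal RNAs come from mitochondrial DNA, while every ribosomal protein is encoded in the nucleus, made in the cytosol and imported. The small subunit reads the mRNA, and the large subunit joins the amino acids and holds the exit tunnel through which the new protein leaves. In hepatocytes, mitochondria oxidise fatty acids, and the electrons released enter that respiratory chain. The gene names follow subunits only in part, since the products of Mrps18a and Mrps30 sit in the large subunit of mammalian mitochondrial ribosomes and Mrps36 is now known as a component of the 2-oxoglutarate dehydrogenase complex. Subunits are kept here by name.

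Sequences are shown for the member whose change passed the test in PA/OA against control (Mrpl46) and for those next in adjusted p that had an entry in the RefSeq promoter table, Mrpl40, Mrpl12 and Mrps22. Each is the 70 bases just before the annotated start of transcription, 5′ to 3′ on the strand of the gene, in GRCm38.p6. They lie at chr7:78783090-78783159 (minus strand) for Mrpl46, chr16:18876638-18876707 (minus strand) for Mrpl40, chr11:120484567-120484636 (plus strand) for Mrpl12 and chr9:98601680-98601749 (minus strand) for Mrps22. Capitals mark CCGGAAG, the core letters bound by ETS factors such as GABP, which Mrps22 alone holds among these 4 stretches.
Mrpl46: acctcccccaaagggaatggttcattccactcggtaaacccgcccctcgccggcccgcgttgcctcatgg
Mrpl40: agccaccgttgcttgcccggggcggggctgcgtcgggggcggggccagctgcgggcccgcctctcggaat
Mrpl12: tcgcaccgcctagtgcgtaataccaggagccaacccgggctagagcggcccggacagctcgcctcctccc
Mrps22: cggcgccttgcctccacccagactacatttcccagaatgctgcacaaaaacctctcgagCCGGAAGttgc

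The whole promoter windows, 250 bases before to 50 after the start, were searched on both strands in the 58 members with an entry. NRF1 and the ETS factor GABP are known as activators of nuclear genes for mitochondrial proteins. The NRF1 core GCATGCGC was in 8 of 58 windows (13.8%), against 3.61% of 17492 protein-coding promoters and 5.67% of the 4708 promoters of genes in the PA/OA against control table. By subunit it was in 7 of 37 large subunit windows (18.9%) and 1 of 21 small subunit windows (4.76%), the latter near the background. The ETS core CCGGAAG was in 22 of 58 (37.9%), against 11.9% and 21.4%, with 35.1% of the large and 42.9% of the small subunit windows. The YY1 core AAGATGG was in 10 of 58 (17.2%), against 6.37% and 8.24%, with 16.2% and 19.0% by subunit. The TATA box TATAAA was in 4 of 58 (6.90%), against 13.3% and 6.54%; Mrpl46 is 1 of the 4, with the match outside the stretch shown. None of the 4 motifs contains another, and a match describes letters, not a bound site.

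The 8 members with the NRF1 core had a median log2 change of -0.04 in PA/OA against control, and the 50 without it -0.17. For the ETS core these medians were -0.17 (22 members) and -0.16 (36), and for the YY1 core -0.18 (10) and -0.17 (48). The 4 members with TATAAA had a median of -0.34 and the other 54 of -0.16. These are descriptions of few genes, with no test.

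Of the 58 members with an entry, 22 had a gene starting on the opposite strand within 1000 bases upstream, 21 of them protein-coding. The share among other genes was not computed, so this count cannot be called particular to the members. Mrpl46 starts 42 bases from Mrps11, another member of the family by name, which the control tables did not list. In the table of the 2 fatty acid groups the PA/OA samples held 1, 0 and 5 counts of Mrps11 and the Ang(1-7) samples 10, 20 and 7. Mrpl43 starts 116 bases from Twnk, the mitochondrial DNA helicase (listed as Peo1), and Mrps12 starts 147 bases from Sars2, a mitochondrial seryl-tRNA synthetase. Mrpl47 starts 308 bases from Ndufb5, a complex I subunit. In PA/OA against control the log2 change was -0.12 for Mrpl47 and -0.60 for Ndufb5 (adjusted p = 0.0593 by edgeR's quasi-likelihood test, Benjamini-Hochberg adjusted), and no listed neighbour passed the test.

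The deposited counts came to 24588312 to 28704499 per sample in a table, and levels below are given as CPM, which puts libraries of unequal size on the same total, with trimmed mean scaling. Sums of cell type markers, here and below, are CPM without that scaling. Summed hepatocyte markers were 22333 to 23822 CPM in the 6 samples of the PA/OA against control table, and no endothelial or red blood cell marker was listed there. Cholangiocyte markers (4 listed of 7) summed to 1993 to 2135 CPM in controls and 1568 to 1711 in PA/OA, and macrophage markers (3 listed of 10) to 587 to 626 and 674 to 816. These sums moved with the group, and their part in the members' values was not tested. Ang(1-7) 2 stood apart from the other 8 libraries. Among the members, its deviations from the control mean had an SD of 0.93 on the log2 scale, against 0.15 to 0.31 in the others, so counts and medians with the Ang(1-7) group are also given without it, as are named members whose value moved by over 1.5 times or changed sign.

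The number of annotated transcripts went with the level of a member. The 36 members with 1 RefSeq transcript had mean counts from 1376 to 9989 over the 6 libraries of the PA/OA against control table, with a median of 3098. The 18 members with 2 or 3 transcripts had a median of 623 (125 to 4424), and 11 of them were under 1000 counts. The 11 members with 4 or more had a median of 252 (60.8 to 1977), and 9 were under 1000. In 8 members, all with more than 1 transcript, only predicted transcripts were listed. Whether reads shared by transcripts of a gene were left out by the counting was not tested, and levels of members with several transcripts are therefore not compared per length.

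**Figure D1:**
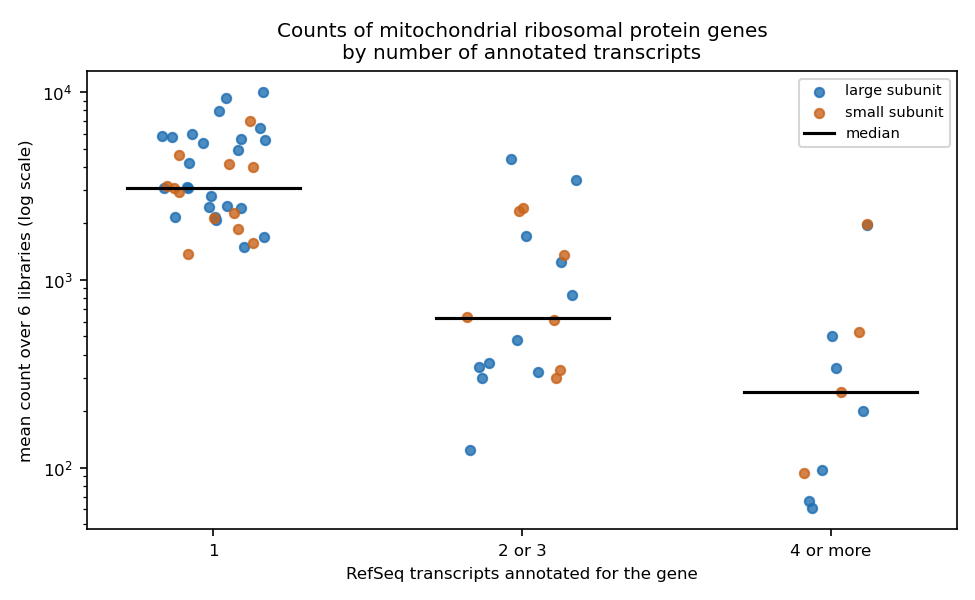
Mean count of each member over the 6 libraries of the PA/OA against control table (log axis), by number of RefSeq transcripts annotated for the gene; points are genes, coloured by subunit, and lines are medians. The medians are 3098, 623 and 252 for 1, 2 or 3, and 4 or more transcripts.

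Levels were compared per length among the 36 members with 1 transcript. In control cells the large subunit members lay between 17.7 and 450 CPM per kilobase (median 127, 24 genes) and the small subunit members between 29.5 and 148 (median 86.1, 12 genes). Mrpl33 was highest at 450 ± 33.0 CPM per kilobase (SD, n = 3), followed by Mrpl12 at 312 ± 11.7 and Mrpl34 at 282 ± 15.7. Mrpl12 is the stalk protein that recruits translation factors and is also known to bind the mitochondrial RNA polymerase. At the low end were Mrpl47 with 17.7 ± 2.60, Mrpl19 with 19.5 ± 1.42 and Mrps26 with 29.5 ± 1.13 CPM per kilobase. Neighbours at the low end such as Mrps26, Mrps25 (30.4 ± 2.33) and Mrpl35 (30.9 ± 2.47) did not differ beyond their spread.

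Not divided by length, CPM mix genes of unequal length and number of annotated transcripts, and the values below describe the counts of each member rather than an order of expression. At the top in control cells were Mrpl12 (411 ± 15.4), Mrpl49 (364 ± 13.6) and Mrpl17 (317 ± 20.6) in the large subunit. In the small subunit these were Mrps7 (288 ± 13.6), Mrps25 (185 ± 14.2) and Mrps5 (166 ± 15.4). At the bottom were Mrpl22 (1.86 ± 0.65), Mrpl24 (2.91 ± 0.38) and Mrpl14 (3.66 ± 1.29) in the large subunit. Mrps12 (3.77 ± 0.65), Mrps10 (8.43 ± 1.26) and Mrps24 (14.1 ± 5.21) had the fewest counts of the small subunit. Those 6 members have 2 or more annotated transcripts, while the 6 at the top have 1.

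In cells given PA and OA, most mitochondrial ribosomal protein genes had lower levels than in control cells, by about the same small amount in both subunits. Of 65 members, 55 had a negative log2 change (84.6%), against 48.0% of all genes tested. The median log2 change was -0.17 in the large subunit (42 genes) and -0.16 in the small (23 genes), against 0.01 over all 6213 genes. By edgeR's quasi-likelihood test, Benjamini-Hochberg adjusted over all genes tested (threshold 0.05), 1 member fell, Mrpl46, and none rose. Over all genes 2.24% were called lower (139) and 2.82% higher (175), so the share of members called lay near this background. At an unadjusted p under 0.05, 20 members were lower and 0 higher, against 8.92% and 10.5% of all genes. DESeq2 called 6 members lower, Mrpl12, Mrpl40, Mrpl46, Mrpl51, Mrps22 and Mrps28, and 0 higher, against 5.3% and 5.69% of the 4888 genes to which it gave an adjusted p. In bulk RNA, a smaller part of the cells with these transcripts and less of them per cell cannot be told apart.

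The summed level of the large subunit members was 4941, 4826 and 5043 CPM in controls 1 to 3 and 4510, 4290 and 4437 in PA/OA 1 to 3. That of the small subunit members was 2028, 1922 and 1958 CPM in controls and 1832, 1742 and 1729 in PA/OA. All 3 PA/OA samples lay below all 3 controls for both subunits. The mean sum went from 4937 ± 108 to 4412 ± 112 CPM (SD, n = 3 per group) in the large subunit, a difference of -10.6%, and from 1970 ± 53.9 to 1768 ± 56.4 in the small, -10.3%. The exact 95% Poisson interval of a single sum was narrow, such as 4914 to 4967 CPM in control 1, and covers counting error only.

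**Figure D2:**
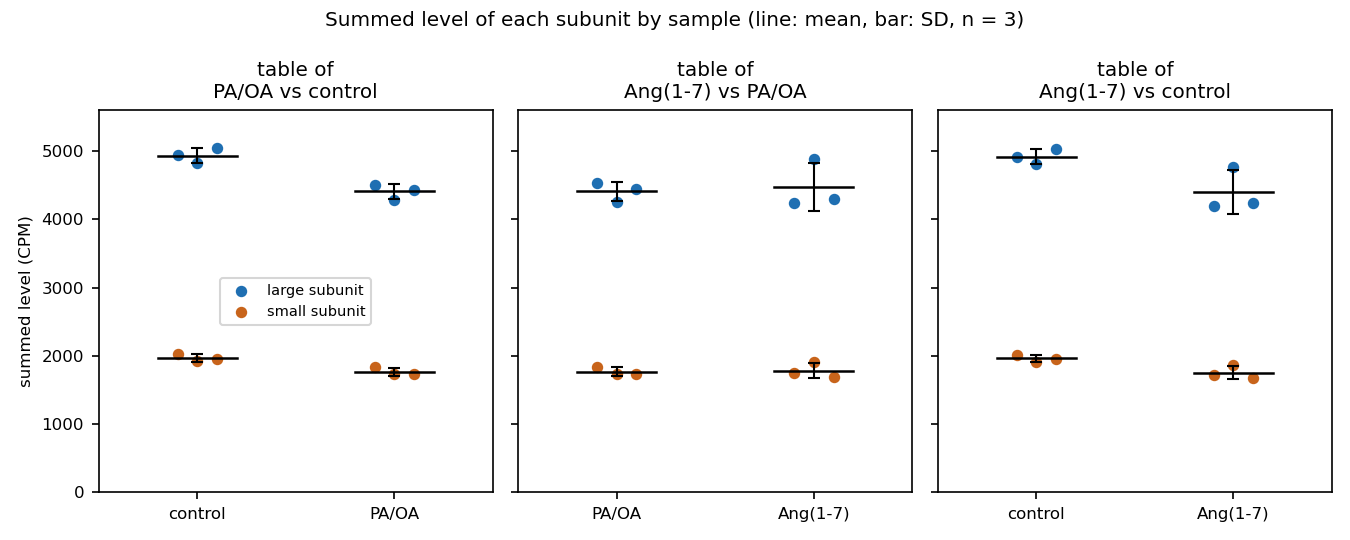
Summed CPM of the 42 large and 23 small subunit members in each sample of each of the 3 tables; points are samples, lines are means and bars are SD (n = 3 per group). PA/OA samples lie below controls for both subunits, and Ang(1-7) 2 lies above the other 2 Ang(1-7) samples.

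Mrpl46, a protein of the central protuberance of the large subunit, was the member that passed the test. Its counts were 2865, 2889 and 3129 in controls 1 to 3 and 1965, 2246 and 1794 in PA/OA 1 to 3. Every PA/OA sample was below every control. The level fell from 111 ± 7.57 to 77.7 ± 9.11 CPM, a log2 change of -0.52 ± 0.11 (SE; adjusted p = 0.00947, edgeR's quasi-likelihood test, Benjamini-Hochberg adjusted). Without PA/OA 3 Mrpl46 did not pass (log2 change -0.44, edgeR adjusted p = 0.0694). That fit called 40 genes lower and 94 higher in all, against 139 and 175 with every sample. In a fit of all 9 samples the log2 change of Mrpl46 was -0.51 (edgeR adjusted p = 0.265), with 2 genes called lower and 31 higher. With any other single sample left out, Mrpl46 passed (edgeR adjusted p from 0.00520 to 0.0485).

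Mrpl40, another protein of the central protuberance, had 131, 129 and 131 CPM in controls and 108, 97.6 and 107 in PA/OA. Mrps28, a small subunit protein, had 67.8, 70.3 and 66.0 CPM in controls and 50.9, 51.1 and 53.1 in PA/OA. In both genes the groups were apart by more than the spread within either. Neither passed, with log2 changes of -0.32 ± 0.09 for Mrpl40 (adjusted p = 0.0543) and -0.40 ± 0.12 for Mrps28 (adjusted p = 0.0570, both by edgeR's quasi-likelihood test, Benjamini-Hochberg adjusted).

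Mrpl12 had 426, 395 and 413 CPM in controls and 377, 341 and 332 in PA/OA, with groups that did not overlap. Its log2 change of -0.23 ± 0.07 did not pass (edgeR adjusted p = 0.0663). Mrps22, a small subunit protein mutated in an inherited mitochondrial disease, had 138, 119 and 114 CPM in controls and 94.9, 101 and 104 in PA/OA, also without overlap. Its log2 change was -0.30 (edgeR adjusted p = 0.0912). Mrpl51 was at 241 ± 9.61 CPM in controls and 204 ± 13.7 in PA/OA (edgeR adjusted p = 0.0940). Mrpl40, Mrps28, Mrpl12, Mrps22 and Mrpl51 were the members with an edgeR adjusted p between 0.05 and 0.1, and each is among the 6 that DESeq2 called.

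The largest negative changes in the small subunit belonged to Mrps24, Mrps28 and Mrps14, and apart from Mrps28 rested on low or scattered counts. Mrps24, a protein of the head of the small subunit, had 542, 282 and 305 counts in controls, and the PA/OA samples had 224, 239 and 203 (log2 change -0.71 ± 0.28, edgeR adjusted p = 0.159). Control 1 was far above the other 2 controls, and the groups did not overlap. Mrps14, also in the head, had 412, 278 and 448 counts in controls, and the PA/OA samples had 252, 303 and 283 (log2 change -0.39, edgeR adjusted p = 0.436), with groups that overlapped.

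In the large subunit the largest negative changes besides Mrpl46 were those of Mrpl57 and Mrpl11. Mrpl57 had 431, 383 and 370 counts in controls and 346, 221 and 193 in PA/OA, with no overlap (log2 change -0.59 ± 0.26, edgeR adjusted p = 0.218). Mrpl11, a protein at the base of the stalk, had 280, 329 and 469 counts in controls, and the PA/OA samples had 275, 252 and 197 (log2 change -0.53 ± 0.27, edgeR adjusted p = 0.303). The highest control of Mrpl11 was set by control 3, and its groups did not differ beyond their spread.

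No member rose by the test. Mrpl22, at the exit tunnel, had 30, 59 and 59 counts in controls, and the PA/OA samples had 63, 75 and 79 (log2 change 0.60 ± 0.51, edgeR adjusted p = 0.575). Mrpl10, which anchors the Mrpl12 stalk, had 29.6, 28.6 and 27.5 CPM in controls, and the PA/OA samples had 34.6, 32.5 and 38.0 (log2 change 0.29, edgeR adjusted p = 0.309). Mrps10 had 200, 264 and 210 counts in controls, and the PA/OA samples had 297, 256 and 282 (log2 change 0.36, edgeR adjusted p = 0.519). On the CPM scale the groups of these 3 genes did not overlap, as also for Mrpl30 (log2 change 0.34, edgeR adjusted p = 0.473). Together with those 4 higher members, 20 members were lower without overlap, against 12.2% of all genes higher and 11.6% lower without overlap.

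Mrps18a, Mrps18b and Mrps18c are 3 relatives of 1 bacterial ribosomal protein. Their log2 changes were 0.01, 0.21 and -0.26, and none passed edgeR's test. Mrps31 (0.02) completed the small subunit members with positive values named by size, and it turned negative without control 3 or without PA/OA 2. Mrps12, which lines the decoding centre, had 79 to 113 counts in controls and 79 to 98 in PA/OA (log2 change -0.16). Mrpl33, highest per length, was at 215 ± 15.8 CPM in controls and 214 ± 9.55 in PA/OA (log2 change -0.01).

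**Figure D3:**
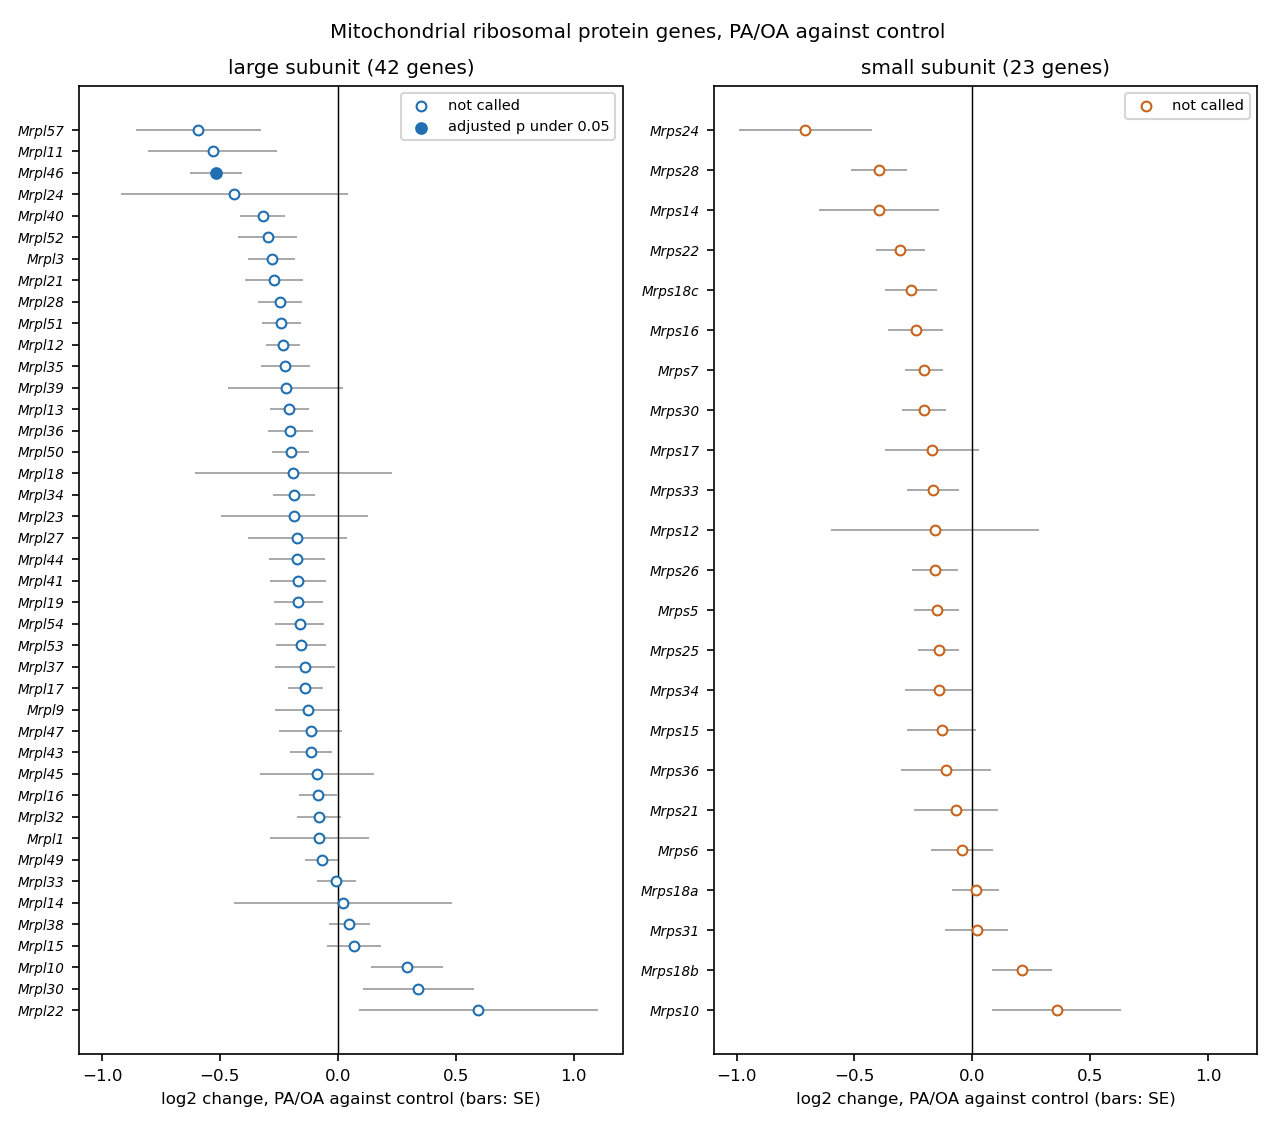
Log2 change of each member in PA/OA against control with its SE, large subunit on the left and small on the right; the filled point is Mrpl46, the member with an adjusted p under 0.05. Of the 65 points, 55 lie left of 0, most between 0 and -0.4.

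Members are short genes, and short genes had lower levels in PA/OA in general. The median transcript length was 1208 bases in the members and 2614 over all genes. Among other genes the median log2 change was -0.14 under 1000 bases, -0.05 from 1000 to 2000, 0.03 from 2000 to 4000 and 0.13 above 4000. The members did not follow that gradient, with medians of -0.16 (22 genes), -0.17 (24), -0.22 (13) and -0.15 (6) in the same order. Above 2000 bases, all 13 members of the first bin and 83.3% of the 6 in the other had negative changes, against 44.7% and 32.7% of other genes. With offsets for transcript length and GC content fitted over all genes, an alternative chosen after seeing the data, the medians were -0.09 in the large and -0.08 in the small subunit. Mrpl46 and Mrpl3 then passed (edgeR adjusted p = 0.0363 and 0.0434), where 1.49% of all genes were called lower and 2.21% higher. Mrpl3, at the peptide-forming core of the large subunit, had 161 to 214 CPM in controls and 143 to 160 in PA/OA.

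**Figure D4:**
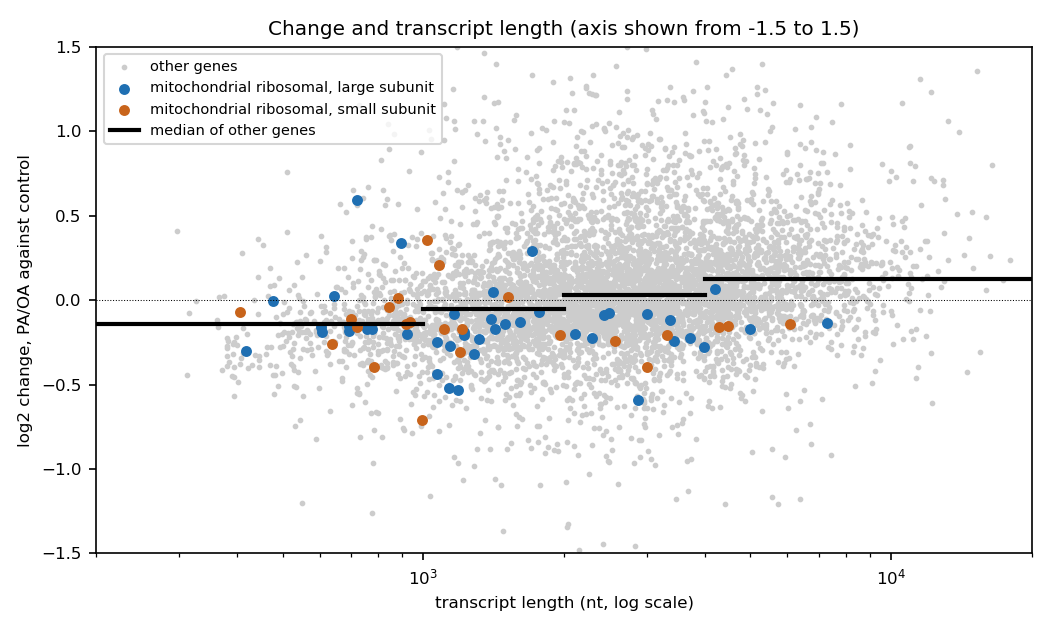
Log2 change in PA/OA against control by transcript length (log axis, values beyond -1.5 to 1.5 not shown); grey points are other genes, black lines their medians in 4 length ranges, and coloured points the members. Other genes go from a median of -0.14 under 1000 bases to 0.13 above 4000, while the medians of the members lie between -0.15 and -0.22.

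Other parts of the mitochondrial protein synthesis pathway had few or no calls by edgeR in PA/OA against control, and none of the lists below held a gene that rose. Of the mitoribosomal proteins under other names 4 were tested, of which 0 passed and 0 had an unadjusted p under 0.05. Of 10 translation factors tested 0 passed and 0 had an unadjusted p under 0.05 (median log2 change -0.06). Gfm1, an elongation factor, was at 277 ± 17.0 CPM in controls and 271 ± 7.36 in PA/OA, and Lrpprc, which stabilises mitochondrial mRNAs, at 191 ± 7.11 and 192 ± 5.65. All 8 mitochondrial aminoacyl-tRNA synthetases tested had negative changes (median -0.13), and 0 passed, with 0 at an unadjusted p under 0.05. Of 22 assembly and rRNA modification factors 0 passed (1 lower and 1 higher at an unadjusted p under 0.05, median -0.01).

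Of 9 genes for mitochondrial DNA upkeep and transcription 0 passed, with 0 at an unadjusted p under 0.05. Tfam, which packages mitochondrial DNA, was at 57.4 ± 2.46 CPM in controls and 54.8 ± 1.93 in PA/OA, and Polrmt, the mitochondrial RNA polymerase, at 3.03 ± 0.88 and 3.43 ± 0.61. Of 5 regulators of mitochondrial biogenesis 0 passed (1 higher and 0 lower at an unadjusted p under 0.05, median 0.17). No mitochondrially encoded gene was listed in any table, so the rRNAs and mRNAs that these ribosomes hold and read were not measured here.

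The counts of the next 3 lists stand beside 2.24% of all genes called lower. Among other genes 11.5% were called lower under 1000 bases and 3.00% from 1000 to 2000. The median transcript length of the import list, 1615 bases, lies in the second of these ranges. Protein import, which brings the ribosomal proteins into mitochondria, had 3 of 27 genes lower and a median of -0.24. Tomm22, a receptor of the outer membrane, fell from 489 ± 10.2 to 392 ± 12.9 CPM (adjusted p = 0.00699), and Hspe1, the matrix co-chaperone of Hsp60, from 549 ± 22.8 to 422 ± 39.0 (adjusted p = 0.00446). Timm8b, a carrier of the intermembrane space, fell from 172 ± 9.06 to 139 ± 2.41 CPM (adjusted p = 0.0429, all 3 by edgeR's quasi-likelihood test, Benjamini-Hochberg adjusted). Of 73 nuclear genes of oxidative phosphorylation 8 fell (median -0.19), Atp5a1, Atp5b, Atp5e and Atp5k of ATP synthase, Cox7a2, Ndufb7, Ndufb10 and Uqcr11. Of 81 cytosolic ribosomal protein genes 19 fell (median -0.15, 95.1% negative). The medians of these 3 lists were near that of the members, and whether the lists differ in their number of calls was not tested. Cytosolic ribosomal protein transcripts are shorter still (median 780 bases), as are those of oxidative phosphorylation (776).

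The comparison of Ang(1-7) with PA/OA addressed whether the peptide altered the state of fatty acid treated cells. It gave no call among the members or among all 9261 genes. By edgeR's quasi-likelihood test 0% of all genes were called higher and 0% lower, and 0 members had an unadjusted p under 0.05, against 1.23% of all genes higher and 1.32% lower. DESeq2 called 0 members, 5 genes higher (0.0487%) and 0% lower. Without Ang(1-7) 2, 0 members had an unadjusted p under 0.05 (1.75% of all genes higher, 1.83% lower) and DESeq2 again called 0 members (0.0233% of genes higher, 0.0932% lower). Of the members 31 had negative and 34 positive changes, with medians of 0.02 in the large and -0.03 in the small subunit, against -0.01 over all genes. On simulated counts with the spread of this table, a 2-fold change was found in 24% of the changed genes and a 1.5-fold change in 2%, so changes as small as those of the members in PA/OA against control were not detectable here. This comparison shares its PA/OA samples with the one above, and the Ang(1-7) samples are shared with the one below.

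The large subunit members summed to 4530, 4258 and 4454 CPM in the PA/OA samples and to 4239, 4888 and 4304 in Ang(1-7) 1 to 3. That of the small subunit was 1842, 1729 and 1734 CPM and 1743, 1909 and 1699. The groups overlapped in both subunits. Means were 4414 ± 140 and 4477 ± 357 CPM in the large subunit and 1768 ± 63.7 and 1783 ± 111 in the small, and Ang(1-7) 2 was the highest of the 6 samples in both subunits. Against the PA/OA means, those of Ang(1-7) 1 and 3 alone were -3.22% in the large and -2.69% in the small subunit.

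In Mrps15, Mrps12 and Mrpl39, Ang(1-7) 2 lay far from the other samples. Mrps15 had 2542, 1734 and 1742 counts in PA/OA and 1953, 6236 and 1954 in Ang(1-7) (log2 change 0.72 ± 0.42). Mrps12 had 79, 84 and 98 counts in PA/OA and 53, 8 and 34 in Ang(1-7) (log2 change -1.47 ± 0.67), with groups that did not overlap. Mrpl39 had 327, 369 and 311 counts in PA/OA and 390, 719 and 391 in Ang(1-7) (log2 change 0.54 ± 0.29). Each had an edgeR adjusted p of 0.965. Their log2 changes without that library were -0.05, -0.998 and 0.21.

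Mrpl57 (log2 change -0.77), Mrpl18 (-0.55), Mrpl14 (-0.52), Mrps14 (-0.47) and Mrps24 (-0.43) followed among the negative values, none of them called. These 5 values without Ang(1-7) 2 were -0.36, -0.67, -0.23, -0.14 and -0.26, so that of Mrpl18 was larger in size and the other 4 smaller. Mrps30 (0.30), Mrps18b (0.29), Mrpl47 (0.25) and Mrpl35 (0.25) followed among the positive ones, and were 0.10, -0.09, 0.08 and -0.02 without that library. Mrpl46 was at 76.3, 86.9 and 69.8 CPM in PA/OA and 90.1, 102 and 70.7 in Ang(1-7), with overlap (log2 change 0.17 ± 0.17, and 0.06 without Ang(1-7) 2). Of the members 6 were lower and 2 higher without overlap, against 6.37% and 4.6% of all genes. Among the remaining 5 samples these numbers were 13 and 5, against 9.83% and 10.3%. Without Ang(1-7) 2 the medians were -0.02 in the large and -0.09 in the small subunit, 39 of 65 changes were negative, and 0 members passed edgeR's test.

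Genes of the family listed only in this table had low counts. Mrpl42 had 57, 21 and 44 counts in PA/OA and 63, 148 and 39 in Ang(1-7), and Mrps9 had 63, 148 and 78 and then 93, 33 and 112. Mrps35 had 0, 2 and 0 counts and then 7, 22 and 2, too few to be tested, as were Mrps2 and Mrps11. Mrpl20, Mrpl48 and Mrps23 had 4 to 74 counts in a sample. None of the 5 that could be tested passed edgeR's test. Translation factors listed here at low level included Tufm (0.93 ± 0.21 CPM in PA/OA and 0.68 ± 0.49 in Ang(1-7)) and Mtif2 (4.57 ± 2.31 and 2.93 ± 0.53), and no gene of any pathway list was called.

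Ang(1-7) 2 held member values far from those of the other libraries. Of the 65 members, 16 lay more than 0.5 from the control mean on the log2 scale (12 lower, 4 higher) and 10 more than 1 (7 lower, 3 higher). Over all 6033 genes that the tables share, 51.2% and 22.7% lay as far out in that library. Mrpl24 deviated by -4.30, with 2 counts where the other 5 libraries of the table had 50 to 81. Mrps12 deviated by -3.34 and Mrpl57 by -3.30, while Mrps15 deviated by 1.47 and Mrps18b by 1.05. The 3 largest of these deviations were in members of low count, with means of 62.3 for Mrpl24, 73.1 for Mrps12 and 262 for Mrpl57. Mrps5, with a mean of 3784 counts, deviated by -1.10 in Ang(1-7) 2 and by at most 0.31 in size in the other 8. Of the 45 members with a mean of at least 1000 counts, 7 lay more than 0.5 from the control mean in Ang(1-7) 2. The part of low counts in these deviations was not tested.

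Markers of some other cell types, not all, had higher sums in the same library and in Ang(1-7) 3. All 17 listed of 25 markers of neurons, astrocytes and oligodendrocytes had counts in both, against 6 or 7 in Ang(1-7) 1 and in PA/OA. They summed to 254 and 218 CPM against 129 to 140. Of these 25 markers, 7 were listed in Ang(1-7) against control and 1 in PA/OA against control. Listing went with the libraries compared, so the detection and sums of listed markers may depend in part on Ang(1-7) 2 and 3 themselves. Stellate cell and fibroblast markers summed to 20.4 and 15.1 CPM against 5.98 to 9.22, with all 5 listed detected against 1 or 2. Of these 10 markers, 1 was listed in PA/OA against control and 1 in Ang(1-7) against control. Red blood cell markers summed to 4.01 and 2.44 CPM, against 0 to 0.159. In Ang(1-7) 3 the SD of the members' deviations was 0.31 and 8 members lay more than 0.5 from the control mean. In Ang(1-7) 2 these values were 0.93 and 16. The part of transcripts of other cell types in the members' values was not tested in either library.

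**Figure D5:**
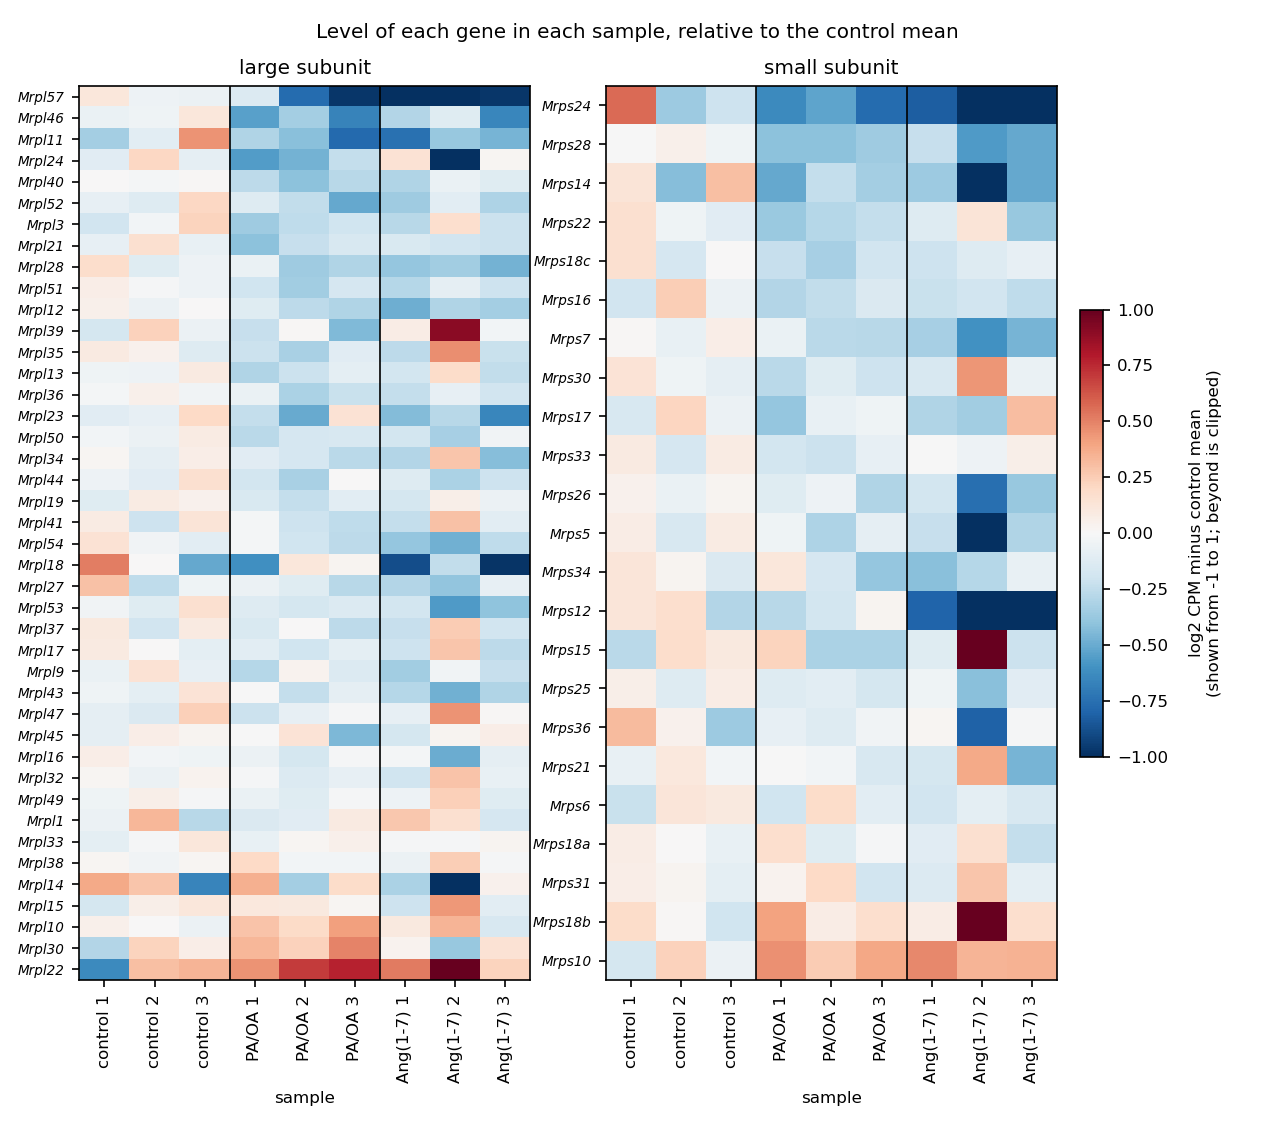
Level of each member in each of the 9 samples as log2 CPM minus the control mean (colours stop at -1 and 1), ordered by the change in PA/OA, with lines between the groups. PA/OA columns are mostly blue, and Ang(1-7) 2 holds 10 members beyond 1 in either direction, more than any other column.

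Against control, the Ang(1-7) group had members at levels like those of PA/OA, and edgeR called none. Of 65 members, 50 had negative changes (76.9%, against 48.4% of all genes), with medians of -0.18 in the large and -0.17 in the small subunit, against 0.02 over all 6134 genes. Here too other genes went with length, from a median of -0.17 under 1000 bases to -0.06, 0.03 and 0.16 in the longer ranges, while the members had -0.22, -0.19, -0.04 and -0.14. With length and GC offsets the members' medians were -0.12 in the large and -0.10 in the small subunit (-0.13 and -0.12 with the replicate block). By edgeR's quasi-likelihood test, Benjamini-Hochberg adjusted 0 members passed, against 0.245% of all genes higher (15) and 0% lower. At an unadjusted p under 0.05, 13 members were lower and 0 higher, against 6.34% and 8.58% of all genes. DESeq2 called 3 members lower, Mrpl12, Mrps7 and Mrps24, and 0 higher, against 1.62% and 2.77% of genes with an adjusted p. Without overlap 22 members were lower and 1 higher, Mrps10, against 13.3% and 13.2% of all genes. These values share their controls with PA/OA against control and are no independent measure of the same difference.

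Summed levels were 4922, 4809 and 5026 CPM in controls and 4194, 4773 and 4237 in Ang(1-7) 1 to 3 for the large subunit. For the small subunit they were 2021, 1916 and 1952 CPM and 1725, 1864 and 1675. All Ang(1-7) samples were below all controls in both subunits, with Ang(1-7) 2 nearest to them. The mean differences were -10.5% and -10.6%, and -14.3% and -13.4% without that library.

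Without Ang(1-7) 2, 7 members fell, and 5.22% of all genes were called higher and 4.96% lower. They were Mrpl12 (log2 change -0.42, adjusted p = 0.00176), Mrps7 (-0.40, adjusted p = 0.00385), Mrpl28 (-0.44, adjusted p = 0.00633), Mrpl57 (-1.06, adjusted p = 0.0185), Mrpl34 (-0.37, adjusted p = 0.0195), Mrpl46 (-0.47, adjusted p = 0.0209) and Mrpl43 (-0.31, adjusted p = 0.0404), all by edgeR's quasi-likelihood test, Benjamini-Hochberg adjusted. The medians were -0.21 in the large and -0.19 in the small subunit, and 56 of 65 changes were negative. At an unadjusted p under 0.05, 24 members were then lower and 0 higher, against 12.4% and 12.3% of all genes. DESeq2 then called 14 members lower and 0 higher, against 8.54% and 7.76% of the genes to which it gave an adjusted p. Without overlap 36 were lower and 1 higher, against 20.8% and 20.5%. Without Ang(1-7) 2 and 3 together, Mrpl12 alone passed (edgeR adjusted p = 0.00488), a fit in which the lone Ang(1-7) sample is assumed to vary like the controls and 1.73% of all genes were called lower and 2.01% higher.

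Mrpl12 had 424, 393 and 411 CPM in controls and 291, 326 and 322 in Ang(1-7) 1 to 3. Mrps7, in the head of the small subunit, had 289, 272 and 299 CPM in controls and 226, 185 and 207 in Ang(1-7). Mrpl28 had 266, 217 and 227 CPM in controls and 180, 182 and 169 in Ang(1-7). In these 3 genes every Ang(1-7) sample, sample 2 included, was below every control. The adjusted p with all samples was 0.149, 0.139 and 0.173 by edgeR's quasi-likelihood test, Benjamini-Hochberg adjusted.

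Mrpl34 had 173, 160 and 178 CPM in controls and 138, 202 and 126 in Ang(1-7), so that sample 2 lay above all controls and the other 2 below them. Mrpl46 had 2865, 2889 and 3129 counts in controls and 2287, 2711 and 1902 in Ang(1-7), without overlap (log2 change -0.36, edgeR adjusted p = 0.326). Mrpl43 had 211, 205 and 241 CPM in controls and 178, 153 and 176 in Ang(1-7), also without overlap.

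The largest differences from control with all samples were again in members of low count. Mrps12 had 110, 113 and 79 counts in controls and 53, 8 and 34 in Ang(1-7) (log2 change -1.63 ± 0.68, edgeR adjusted p = 0.315). Mrpl57 had 431, 383 and 370 and then 170, 38 and 202 (log2 change -1.51 ± 0.54, edgeR adjusted p = 0.259), in a table that lists fewer of its transcripts than that of the 2 fatty acid groups. Mrps24 had 542, 282 and 305 and then 191, 130 and 181 (log2 change -1.15 ± 0.34, edgeR adjusted p = 0.194). In all 3 genes the groups did not overlap, and Ang(1-7) 2 was the lowest sample. Without it the log2 changes were -1.17, -1.06 and -0.99.

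Mrps14 (log2 change -0.79), Mrpl18 (-0.76) and Mrpl11 (-0.58) came next among the negative values, and were -0.48, -1.02 and -0.65 without Ang(1-7) 2. Mrpl22 (0.62), Mrps15 (0.57), Mrps18b (0.48), Mrps10 (0.37), Mrpl39 (0.35) and Mrpl47 (0.12) were the largest positive ones, none called by edgeR. These 6 values without Ang(1-7) 2 were 0.32, -0.19, 0.11, 0.40, 0.0065 and -0.05, so that Mrps15 and Mrpl47 turned negative. Of the pathway lists 0 genes were called in this comparison. At an unadjusted p under 0.05, 2 of 4 mitoribosomal proteins under other names were lower and 0 higher. Their median log2 change was -0.33, and -0.18 without Ang(1-7) 2. Lower at that threshold were also 7 of 27 import genes, 12 of 72 oxidative phosphorylation genes and 15 of 80 cytosolic ribosomal protein genes, against 6.34% of all genes. Without Ang(1-7) 2, edgeR called 7, 13 and 34 genes of these 3 lists lower, against 4.96% of all genes, and 12, 31 and 51 were lower at an unadjusted p under 0.05, against 12.4%. Tomm22 was at 488 ± 10.2 CPM in controls and 399 ± 20.8 in Ang(1-7), and Tfam at 57.2 ± 2.44 and 49.3 ± 5.18, both without overlap.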

How the data were processed

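Total RNA of 9 AML12 samples was sequenced. The authors deposited 3 tables, 1 per pair of groups, with whole-number counts per RefSeq transcript, log2 fold changes and p-values, per the file headers. bcl2fastq, HISAT2 2.2.5 and HTSeq 0.11.2 are named per the submitters' processing notes, which give a human build although the tables hold mouse transcripts; the annotation release and the way of counting were not given in the sources used here. The deposited log2 and p-value columns were used only for a count: member transcripts with a p-value under 0.05 in the authors' deposited tables numbered 27 of 70, 2 of 85 and 15 of 70 (26, 1 and 15 lower). The share over all deposited transcripts was not computed, so these counts cannot be called particular to the members.

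Counts were summed per gene symbol and each pair fitted in its own table by edgeR 4.0.16 (R 4.3.3, filterByExpr, trimmed mean scaling, quasi-likelihood F test, Benjamini-Hochberg over 6213, 9261 and 6134 genes, 2-sided, threshold 0.05). Levels are CPM (mean ± SD, n = 3). The SE of a log2 change is its size divided by the square root of its F statistic, so it restates the test. The fits were tested on simulated data with known changes: in PA/OA against control a 1.25-fold change was found in 18% and a 1.5-fold change in 52% of changed genes. Alternatives were DESeq2 1.42.0 and its size factors, other filters, curated transcripts, a replicate block, left-out samples, all 9 samples together and, added after seeing the data, length and GC offsets, Ang(1-7) 2 and 3 left out, DESeq2 with Ang(1-7) 2 left out and subunits by structure.

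The members, lists and tests were chosen with earlier results of these data known. Named members were those called, the 3 largest changes per direction and subunit with a mean of at least 50 counts, the highest and lowest control levels, and Mrpl12, Mrpl11, Mrps12 and Mrps35; others named were chosen after their values were seen. Promoters and transcript numbers come from RefSeq (GRCm38.p6), in which 58 of 65 members had a promoter entry.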

Additional observations from a re-analysis of the deposited data

How the results depend on the processing

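In PA/OA against control the number of members lower, 1, became 6 with DESeq2 and 2 with a mean of at least 100 counts. It was 3 with curated transcripts only (57 members tested) and 0 in the fit of all 9 samples (33 genes called in all against 314). With length and GC offsets it was 2, and also 2 with these offsets and the replicate block. Leaving out each sample in turn gave 0 (without PA/OA 3) to 4 (without PA/OA 1). Over all genes, 139 of 6213 were lower in the main fit and 259 of 4888 with DESeq2. With a mean of at least 100 counts 155 of 5368 were lower, and with curated transcripts 159 of 5257. With offsets 91 of 6107 were lower, and 83 of 6107 with offsets and block. Without PA/OA 3 and without PA/OA 1, 40 and 197 of 6213 were lower. Length and GC offsets took the medians to -0.0873 in the large and -0.0796 in the small subunit, and with the block to -0.0872 and -0.0759. In Ang(1-7) against control the number lower, 0, became 3 with DESeq2, 0 to 7 with a sample left out (7 without Ang(1-7) 2), 14 with DESeq2 and Ang(1-7) 2 left out and 1 without Ang(1-7) 2 and 3; the small subunit median was -0.24 to -0.16 with a sample left out, -0.10 with offsets and -0.12 with offsets and block. In Ang(1-7) against PA/OA the small subunit median was -0.0873 to 0.0024 with a sample left out and -0.0934 with DESeq2 and Ang(1-7) 2 left out, and the large subunit median -0.0593 without Ang(1-7) 2 and 3. The cause of these differences was not tested.

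Some values changed sign with the setting. Not all were near 0, as Mrps15 was at 0.72 against PA/OA and 0.57 against control with all samples. In PA/OA against control Mrps31 became -0.0285 without control 3 and -0.0773 without PA/OA 2 (range with a sample left out -0.0773 to 0.11). Against PA/OA, Mrpl35, Mrps18b and Mrps15 became -0.016, -0.0873 and -0.0463 without Ang(1-7) 2, the lowest of ranges up to 0.38, 0.46 and 1.00, and -0.0427, -0.14 and -0.0085 without Ang(1-7) 2 and 3. With DESeq2 and Ang(1-7) 2 left out they were -0.0223, -0.0934 and -0.0520, and against control Mrps15 was -0.19 and Mrpl47 -0.0536. Against control, Mrps15 became -0.19 and -0.14, and Mrpl47 -0.0502 and -0.0988, under the same settings (0.85 and 0.25 at most with a sample left out), and Mrpl47 was -0.0048 with offsets and -0.0037 with offsets and block.

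Deviations of samples with the same replicate number were hardly correlated (-0.0354 to 0.0343 over genes). In PA/OA against control such pairs were at 0.0105, 0.0130 and 0.0178, and the other pairs at -0.0124 to 0.000468. Correlations this small cannot settle whether the numbers pair the samples. With the replicate block 1 member remained lower in PA/OA against control, Mrpl46 (edgeR adjusted p = 0.0150), with 303 genes called in all, and 0 in the other comparisons. Placing Mrps18a and Mrps30 with the large subunit, without Mrps36, left every median's sign as it was.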
